A study of Mus musculus with 10 samples.

Results

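The genes described here are secreted ligands of the TGF-beta and BMP families (Tgfb1, Tgfb2, Tgfb3, Bmp4), the inhibitory Smads Smad6 and Smad7, and the Id genes Id1, Id2 and Id3, which BMP signalling switches on in many cells. They were chosen by name from a list of 10 pathway genes, of which 9 were read from an expression table of 11228 genes. The members and the gene lists used below were chosen with earlier results of these data known. The other gene of the list, Mstn, was not analysed here. Mouse myotubes, the multinucleated cells that form when myoblasts fuse, were taken after 2 days of differentiation in culture. Charme, a muscle long non-coding RNA, had been knocked down in them with gapmers, short chimeric antisense oligonucleotides through which RNase H degrades the paired RNA. Polyadenylated RNA was sequenced from myotubes given the gapmer set GAP-2/3, myotubes given the set GAP-2 and control myotubes given GAP-scr, with 2 libraries (A and B) in each group. The set names leave it possible that GAP-2/3 holds the gapmer of GAP-2, and both arms are compared with the same GAP-scr libraries. No genotype, strain or source of the myoblasts is given in the labels. The study's design text calls the libraries biological replicates, but no label states that A and B were grown as separate cultures. The p-values therefore rest on the variation between libraries, and that variation may be only technical.

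TGF-beta ligands are secreted in a latent complex and, once released, signal through the receptors Tgfbr2 and Tgfbr1 to Smad2 and Smad3. BMP ligands act through receptors such as Bmpr1a and Acvr1 to Smad1 and Smad5, and the Id genes are among the direct targets of these Smads. Id proteins lack a DNA-binding region and pair with E proteins such as Tcf3, Tcf4 and Tcf12, which keeps those from pairing with MyoD and other myogenic factors. Both branches are known to restrain myoblast differentiation in culture, and BMP ligands can turn C2C12 myoblasts towards an osteoblast fate.

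Upstream sequence is shown for Bmp4, the member with the largest change, and for Id2 and Id3, as examples of BMP-responsive genes. The sequences are the 250 bases before the annotated transcript start in RefSeq for GRCm38.p6, written 5′ to 3′ on the gene's strand. They lie at chr14:46390670-46390919 (minus strand) for Bmp4, chr12:25096093-25096342 (minus strand) for Id2 and chr4:136143572-136143821 (plus strand) for Id3. Capitals mark the letters CANNTG, the E-box that MyoD and E proteins can bind, CAGAC, the core of a Smad binding element, or GGCGCC, a GC-rich element that BMP Smads can bind, each searched on both strands.
Bmp4: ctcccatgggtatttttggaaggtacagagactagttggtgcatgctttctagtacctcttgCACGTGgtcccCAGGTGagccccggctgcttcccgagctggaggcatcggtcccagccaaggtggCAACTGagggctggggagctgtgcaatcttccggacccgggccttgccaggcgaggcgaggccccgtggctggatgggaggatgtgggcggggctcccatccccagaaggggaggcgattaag
Id2: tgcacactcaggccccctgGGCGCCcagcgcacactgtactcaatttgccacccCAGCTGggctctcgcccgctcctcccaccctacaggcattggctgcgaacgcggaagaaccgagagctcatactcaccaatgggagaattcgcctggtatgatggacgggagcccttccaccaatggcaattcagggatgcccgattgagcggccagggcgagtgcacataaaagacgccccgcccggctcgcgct
Id3: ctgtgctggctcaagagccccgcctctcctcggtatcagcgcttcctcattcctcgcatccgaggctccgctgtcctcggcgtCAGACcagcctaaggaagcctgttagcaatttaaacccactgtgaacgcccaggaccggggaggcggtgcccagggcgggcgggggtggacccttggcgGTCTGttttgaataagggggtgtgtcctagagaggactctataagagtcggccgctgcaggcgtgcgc

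The Bmp4 window held 3 CANNTG matches, which began 188, 177 and 123 bases before the start. The Id2 window held 1 GGCGCC match, 231 bases before the start, and 1 CANNTG match, 196 bases before it. The Id3 window held 2 CAGAC matches, 1 on each strand, at 167 and 68 bases before the start. Of the other members with a sequence used, the Tgfb2 window held 2 CAGAC matches and 1 CANNTG match. The windows of Tgfb1 and Smad6 held 0 matches to any of these letters. The Tgfb2 window lay inside the annotated span of its gene and the Smad6 window partly inside, so neither is wholly upstream. These letters are common: CANNTG was found in 66.0%, CAGAC in 42.1% and GGCGCC in 9.54% of 27025 mouse promoter windows of the same length. A match is a description of letters and not a binding site.

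The authors' values are FPKM, fragment numbers scaled to transcript length and library size so that levels can be set side by side. The libraries still differed in their median, and some calls below changed when that was evened out. The number of reads behind the values is unknown. The median level of the tested genes ran between 13.1 and 13.8 FPKM in the GAP-2/3 and GAP-2 libraries, and was 12.7 and 12.3 FPKM in the GAP-scr libraries. Replicates correlated at 0.994 in GAP-2/3, 0.995 in GAP-2 and 0.989 in GAP-scr (Pearson, log2 scale, across genes). A pair of libraries stood apart in Rn45s, the ribosomal RNA precursor: GAP-2 A had 4090 FPKM and GAP-scr A 3387 FPKM, against 93.2 to 176 FPKM in the other 4. Each member count below is therefore also given without that pair. Most listed myotube markers lay well above the median gene in every library. Acta1 had 2834 to 3215 FPKM in the arms and 5636 and 6323 FPKM in GAP-scr. Over all libraries, however, Ttn ran from 13.6 to 28.75 FPKM and Myh8 from 1.65 to 4.90 FPKM.

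With GAP-2/3, 7 of the 9 genes were higher than with GAP-scr (Tgfb2, Bmp4, Smad6, Smad7, Id1, Id2 and Id3) and 1, Tgfb3, was lower. Tests were made with limma on log2(FPKM + 1) over 10993 genes, with a Benjamini-Hochberg adjusted p below 0.05 as the call. Over all genes tested, 39.3% were called in this comparison, 28.0% as higher and 11.3% as lower. With GAP-2, 3 members were higher (Bmp4, Smad7 and Id1) and 1 was lower (Tgfb3), against 14.6% of all genes called, 10.4% as higher and 4.18% as lower. For the mean of both arms the members' counts were 7 higher and 1 lower, against 34.1% of all genes, 24.5% as higher and 9.57% as lower. Between the arms, 1 member (Id3) was higher in GAP-2/3 than in GAP-2 and 1 (Tgfb3) was lower, against 10.1% of all genes, 6.50% as higher and 3.65% as lower.

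The median gene itself lay above 0, at a log2 change of 0.13 in GAP-2/3, 0.07 in GAP-2, 0.10 in the mean of both arms and 0.05 between the arms. The medians of the 9 members were 0.51, 0.26, 0.39 and 0.24 in the same 4 comparisons. Scaling every library to the same median moved the split of called genes from 3081 higher and 1242 lower to 1928 and 1789 in GAP-2/3. It moved that split from 1144 and 460 to 708 and 648 in GAP-2, from 2698 and 1052 to 1618 and 1556 in the mean of both arms, and from 714 and 401 to 464 and 424 between the arms. Under this scaling Smad6 and Id2 were no longer called in GAP-2/3, and Smad7 and Id1 were no longer called in GAP-2. Without the pair of libraries highest in Rn45s, the members called numbered 6 in GAP-2/3, where Smad6 and Id2 were lost, and 4 for the mean of both arms (Bmp4, Tgfb2, Tgfb3 and Id3). The members called in GAP-2 alone and between the arms then each numbered 1, Bmp4 and Id3. All 9 members were above 1 FPKM in every library, so none passed the filter through a group in which it was high.

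**Figure D1:**
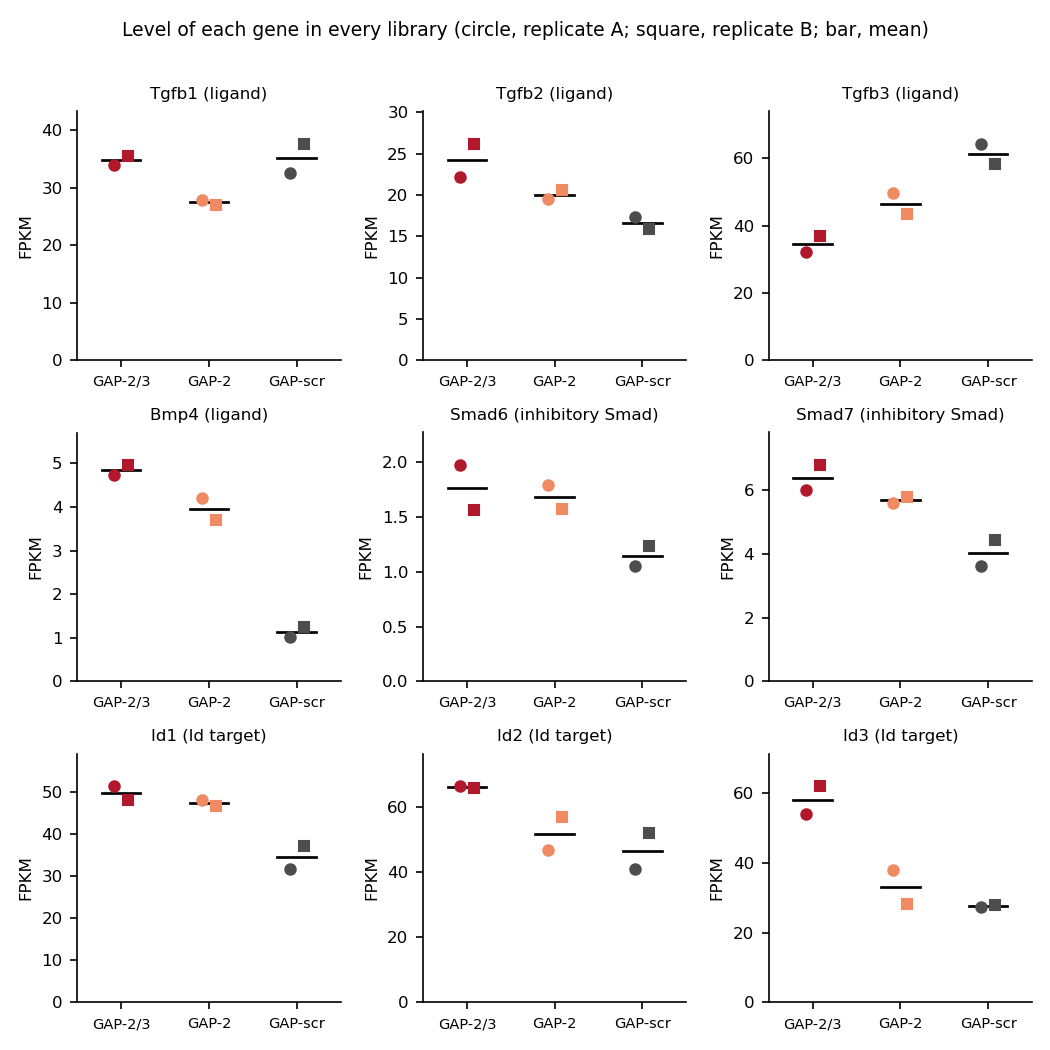
FPKM of each gene (vertical axis, from 0) in every library of GAP-2/3, GAP-2 and GAP-scr; circles are replicate A, squares replicate B and bars the group mean. Bmp4 lies at 4.74 and 4.96 FPKM in GAP-2/3 and at 4.21 and 3.69 FPKM in GAP-2, all above the GAP-scr libraries, while Tgfb3 is highest in GAP-scr and lowest in GAP-2/3.

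The ranking of the members by FPKM differed between groups. In GAP-2/3 the mean levels ran from Id2 (66.1 FPKM) through Id3 (58.1), Id1 (49.9), Tgfb1 (34.8), Tgfb3 (34.6), Tgfb2 (24.2), Smad7 (6.398) and Bmp4 (4.85) to Smad6 (1.76 FPKM). Only Tgfb1 and Tgfb3, among neighbours in that order, overlapped between libraries. In GAP-2 the order of mean levels began with Id2 (51.8 FPKM), Id1 (47.5) and Tgfb3 (46.6), which overlapped, followed by Id3 (33.1), Tgfb1 (27.5), Tgfb2 (20.03), Smad7 (5.70), Bmp4 (3.95) and Smad6 (1.68 FPKM). In GAP-scr, Tgfb3 came first at a mean of 61.2 FPKM, ahead of Id2 (46.4), Tgfb1 (35.1), Id1 (34.5), Id3 (27.6), Tgfb2 (16.6), Smad7 (4.03), Smad6 (1.14) and Bmp4 (1.13 FPKM). There Tgfb1 overlapped Id1, and Smad6 overlapped Bmp4.

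Bmp4, a BMP ligand that drives bone formation and can hold back myogenesis, was the member with the largest change. It was measured at 4.74 and 4.96 FPKM in the GAP-2/3 libraries and at 4.21 and 3.69 FPKM in the GAP-2 libraries, against 1.02 and 1.24 FPKM in the GAP-scr libraries. Every library of both arms lay above both GAP-scr libraries. The share of all genes set apart from GAP-scr in this way was not determined, here and for the genes below. The mean was 4.85 ± 0.159 FPKM in GAP-2/3, 3.95 ± 0.364 FPKM in GAP-2 and 1.13 ± 0.161 FPKM in GAP-scr (SD, n = 2 each), so the mean FPKM was 4.29-fold and 3.49-fold that of GAP-scr. The added 1 compresses the change of a gene this low. With log2(FPKM + 1) it rose by 1.46 ± 0.13 (SE) in GAP-2/3 (limma, adjusted p = 1.23e-05) and by 1.22 ± 0.13 in GAP-2 (adjusted p = 0.000134). The difference between the arms was 0.24 on that scale with a 95% interval of -0.03 to 0.52 and was not called. Its call in each arm held under the 15 alternatives in which it was tested (a filter of 5 FPKM removes it), with a log2 change of 1.28 to 2.01 in GAP-2/3 and 1.06 to 1.72 in GAP-2. As whole-culture RNA was sequenced, more RNA per cell and more cells of a type that makes Bmp4 cannot be told apart, here and for every gene below.

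Osteoblast marker genes moved beside Bmp4 in part, and their part in the result was not tested. Of 12 listed, 6 were tested, and 2 rose and 1 fell for the mean of both arms, in which 24.5% of all genes rose and 9.57% fell. Bglap2, an osteocalcin gene, had 12.9 and 15.0 FPKM in GAP-2/3 and 15.7 and 14.6 FPKM in GAP-2, against 1.96 and 1.74 FPKM in GAP-scr. It shares near-identical sequence with other osteocalcin genes, so its own share of the fragments is uncertain. Sp7, the osteoblast transcription factor osterix, had 7.24 and 9.05 FPKM in GAP-2/3 and 11.3 in each GAP-2 library, against 3.59 and 3.85 FPKM in GAP-scr. Both groups of arm libraries lay clear of GAP-scr for these genes, with log2 changes for the mean of both arms of 2.44 ± 0.11 (limma, adjusted p = 8.45e-08) and 1.17 ± 0.11 (adjusted p = 3.54e-05). Bglap2 and Sp7 were named for their small p in that contrast. Col1a1, the major collagen of bone and of fibroblasts, fell by 0.54 ± 0.11 for the mean of both arms (adjusted p = 0.00484), with -0.92 in GAP-2/3 (adjusted p = 0.000495) and -0.17 in GAP-2 (adjusted p = 0.407). Runx2 and Spp1 were not called for the mean of both arms. Spp1, the bone matrix protein osteopontin, rose by 0.64 in GAP-2/3 (adjusted p = 0.00822), while its difference in GAP-2 was -0.34 (adjusted p = 0.153). Dmp1 and Phex, osteocyte genes, were below the filter of 1 FPKM on average, and with no filter Dmp1 fell by 0.62 (adjusted p = 0.00151) and Phex rose by 0.44 (adjusted p = 0.0138), which made 5 list genes called. Summed over the 8 listed genes in the table, the level was 1506 to 1796 FPKM in GAP-2/3, 1321 to 1383 FPKM in GAP-2 and 1497 to 1653 FPKM in GAP-scr. Spp1 (means of 1194, 600 and 762 FPKM in GAP-2/3, GAP-2 and GAP-scr) and Col1a1 (421, 711 and 793 FPKM) carried that sum. It therefore hardly reflects Bglap2 or Sp7.

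The 3 TGF-beta ligands, which signal through the same receptor pair, went different ways. Tgfb3 was measured at 32.2 and 37.0 FPKM in GAP-2/3 and at 49.6 and 43.5 FPKM in GAP-2, against 64.2 and 58.2 FPKM in GAP-scr. The 3 groups did not overlap, and GAP-2 lay between the others. Tgfb3 fell by 0.81 ± 0.12 on the log2 scale in GAP-2/3 (limma, adjusted p = 0.000568) and by 0.39 ± 0.12 in GAP-2 (adjusted p = 0.0484). The GAP-2 call was near the threshold. It was lost without GAP-2 B (-0.30, adjusted p = 0.399), GAP-2 A (-0.48, adjusted p = 0.107), GAP-scr A (-0.32, adjusted p = 0.0951), GAP-2/3 A (-0.39, adjusted p = 0.0737) or GAP-2/3 B (-0.39, adjusted p = 0.0748). The direct test between the arms gave a log2 difference of -0.42 ± 0.12 (adjusted p = 0.0466), a call lost when any 1 library of either arm was left out (-0.52 to -0.32, adjusted p = 0.092 to 0.458).

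Tgfb2 was measured at 22.2 and 26.2 FPKM in GAP-2/3 and at 19.5 and 20.6 FPKM in GAP-2, against 17.4 and 15.8 FPKM in GAP-scr. Each arm library lay above both GAP-scr libraries. Tgfb2 rose by 0.51 ± 0.12 on the log2 scale in GAP-2/3 (limma, adjusted p = 0.0067), while in GAP-2 the log2 difference was 0.26 ± 0.12 and was not called (adjusted p = 0.163). The GAP-2/3 call was lost without GAP-2/3 B (0.40, adjusted p = 0.0586). For the mean of both arms the log2 change was 0.39 ± 0.10 (adjusted p = 0.0156), and this call was lost without GAP-2 B (0.37, adjusted p = 0.0605) or GAP-scr B (0.32, adjusted p = 0.0652).

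Tgfb1, the family's most widely expressed ligand, was measured at 34.0 and 35.6 FPKM in GAP-2/3 and at 27.8 and 27.1 FPKM in GAP-2, against 32.6 and 37.6 FPKM in GAP-scr. GAP-2/3 lay inside the GAP-scr range and GAP-2 lay below it. The log2 difference from GAP-scr was -0.01 ± 0.11 in GAP-2/3 (95% interval -0.25 to 0.23) and -0.34 ± 0.11 in GAP-2 (interval -0.58 to -0.10), and neither was called by limma (adjusted p = 0.948 and 0.062). The GAP-2 difference was called after scaling every library to the same median (-0.41, adjusted p = 0.0402) and without GAP-scr A (-0.44, adjusted p = 0.0185).

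The inhibitory Smads, which BMP and TGF-beta signalling induce and which block receptor and Smad activity in turn, were both called higher in GAP-2/3, and Smad7 also in GAP-2. Smad7, which acts on both branches, was measured at 5.999 and 6.80 FPKM in GAP-2/3 and at 5.62 and 5.79 FPKM in GAP-2, against 3.64 and 4.43 FPKM in GAP-scr. The arms did not overlap GAP-scr. Smad7 rose by 0.56 ± 0.13 on the log2 scale in GAP-2/3 (limma, adjusted p = 0.00629) and by 0.42 ± 0.13 in GAP-2 (adjusted p = 0.0494). The GAP-2/3 call was lost without GAP-2/3 B (0.48, adjusted p = 0.0545). The GAP-2 call was lost without GAP-2/3 A (adjusted p = 0.0788), GAP-2/3 B (adjusted p = 0.0795), GAP-2 A (adjusted p = 0.19), GAP-2 B (adjusted p = 0.283) or GAP-scr A (adjusted p = 0.119), with log2 changes of 0.30 to 0.44.

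Smad6, which acts mainly on the BMP branch, was measured at 1.97 and 1.56 FPKM in GAP-2/3 and at 1.78 and 1.57 FPKM in GAP-2, against 1.05 and 1.23 FPKM in GAP-scr. No arm library overlapped GAP-scr, but the gene was among the lowest tested, with a mean level above that of only 4.35% of genes. Smad6 rose by 0.37 ± 0.13 on the log2 scale in GAP-2/3 (limma, adjusted p = 0.0433), while the difference of 0.32 ± 0.13 in GAP-2 was not called (adjusted p = 0.116). The GAP-2/3 call was lost under 9 of 15 alternatives. Those included scaling every library to the same median (0.30, adjusted p = 0.105) and leaving out GAP-2/3 A (0.26, adjusted p = 0.262), GAP-2/3 B (0.47, adjusted p = 0.0552), GAP-2 A (0.37, adjusted p = 0.0642), GAP-2 B (0.37, adjusted p = 0.0656) or GAP-scr A (0.30, adjusted p = 0.12).

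The Id genes, inhibitors of the E proteins and thereby of myogenic factors, were all called higher in GAP-2/3, and Id1 also in GAP-2. Id1 was measured at 51.6 and 48.3 FPKM in GAP-2/3 and at 48.2 and 46.8 FPKM in GAP-2, against 31.7 and 37.4 FPKM in GAP-scr. Both arms stood at nearly the same level, clear of GAP-scr. Id1 rose by 0.52 ± 0.11 on the log2 scale in GAP-2/3 (limma, adjusted p = 0.00477) and by 0.45 ± 0.11 in GAP-2 (adjusted p = 0.023), and the arms differed by 0.07 with a 95% interval of -0.18 to 0.32. The GAP-2/3 call was lost without GAP-2/3 A (0.47, adjusted p = 0.0622). The GAP-2 call was lost without GAP-2/3 A (adjusted p = 0.053), GAP-2/3 B (adjusted p = 0.0537), GAP-2 A (adjusted p = 0.152), GAP-2 B (adjusted p = 0.136) or GAP-scr A (adjusted p = 0.051), with log2 changes of 0.34 to 0.47.

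Id3 was measured at 54.1 and 62.1 FPKM in GAP-2/3 and at 37.9 and 28.2 FPKM in GAP-2, against 27.4 and 27.9 FPKM in GAP-scr. GAP-2/3 lay far above both other groups, and GAP-2 B lay just above the GAP-scr libraries. Id3 rose by 1.04 ± 0.14 on the log2 scale in GAP-2/3 (limma, adjusted p = 0.000311), and the mean FPKM was 2.10-fold that of GAP-scr. In GAP-2 the log2 difference was 0.24 ± 0.14 and was not called (adjusted p = 0.26), and it was 0.03 without GAP-2 A and 0.44 without GAP-2 B. The difference between the arms was tested directly and was 0.81 ± 0.14 (adjusted p = 0.0043). That call was lost without GAP-2/3 A (0.90, adjusted p = 0.0607) or GAP-2/3 B (0.71, adjusted p = 0.102).

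Id2, the Id gene with the highest mean level in each group, was measured at 66.3 and 65.8 FPKM in GAP-2/3 and at 46.6 and 56.9 FPKM in GAP-2, against 40.8 and 52.0 FPKM in GAP-scr. GAP-2/3 lay above GAP-scr, and GAP-2 overlapped it. Id2 rose by 0.51 ± 0.14 on the log2 scale in GAP-2/3 (limma, adjusted p = 0.0129), while the GAP-2 difference was 0.16 ± 0.14 (adjusted p = 0.452). The GAP-2/3 call was lost after scaling every library to the same median (0.40, adjusted p = 0.0602). It was also lost without GAP-2/3 A (0.50, adjusted p = 0.106), GAP-2/3 B (0.52, adjusted p = 0.0757) or GAP-scr A (0.34, adjusted p = 0.0577).

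**Figure D2:**
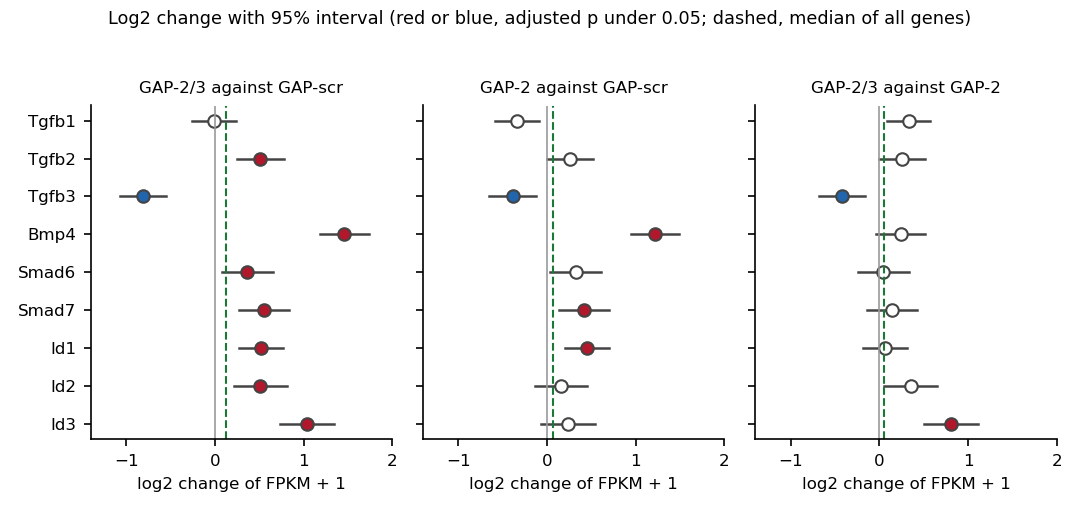
Log2 change of FPKM + 1 (horizontal axis) of each gene for GAP-2/3 against GAP-scr, GAP-2 against GAP-scr and GAP-2/3 against GAP-2, with 95% intervals from limma; filled points passed an adjusted p of 0.05 and the dashed line is the median of all genes. Bmp4 is the rightmost gene in both arms (1.46 and 1.22), Tgfb3 is to the left of 0 in every panel, and Id3 is the member with the largest difference between the arms (0.81).

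Marker lists of myotubes, cycling myoblasts and fibroblasts were read beside the Id genes and the ligands, and their part in these results was not tested. Over all genes, 24.5% rose and 9.57% fell for the mean of both arms. Of 10 myotube markers tested, 0 rose and 9 fell for the mean of both arms, also with 0 higher and 10 lower at an unadjusted p below 0.05 in limma. By arm, 6 fell in GAP-2/3 and 8 in GAP-2, against 11.3% and 4.18% of all genes. In GAP-2/3, Myog, Mylpf, Myh3 and Tnnt3 were not called. The markers' summed level was 11860 to 11960 FPKM in GAP-2/3 and 9652 to 10150 FPKM in GAP-2, against 15610 to 16900 FPKM in GAP-scr. Most of that level came from Acta1 (means of 3071, 2904 and 5979 FPKM in GAP-2/3, GAP-2 and GAP-scr) and Mylpf (5457, 4058 and 5838 FPKM). Of 9 cycling myoblast markers tested, 2 rose and 0 fell for the mean of both arms (3 and 0 at an unadjusted p below 0.05 in limma), a share near that of all genes. In GAP-2/3, 5 of the 9 rose, against 28.0% of all genes, and in GAP-2 1 rose, against 10.4%. After scaling every library to the same median, 2 of these markers rose and 0 fell in GAP-2/3, where 1928 of 10993 genes rose. The summed level of the cycling markers was 116 to 134 FPKM in GAP-2/3 and 87.9 to 99.9 FPKM in GAP-2, against 71.5 to 85.7 FPKM in GAP-scr. Most of it came from Pcna and Myf5. Mean GAP-2 levels of Pcna (42.6 FPKM), Myf5 (24.2) and Cdk1 (5.95) exceeded those of GAP-scr (37.4, 13.2 and 5.16 FPKM). Mki67, Top2a, Ccnb1, Ccna2, Mcm2 and Bub1 had lower means with GAP-2 than with GAP-scr. The median log2 change of the list from GAP-scr stood at 0.48 for GAP-2/3 but at -0.02 for GAP-2. Of 9 fibroblast markers tested, 4 rose and 2 fell, with a sum of 10610 to 10740 FPKM in GAP-2/3 and 7791 to 8040 FPKM in GAP-2, against 6262 to 6933 FPKM in GAP-scr. S100a4 and Vim carried that sum. The other 7 genes, collagens among them, summed to 1418 and 1646 FPKM in GAP-2/3 and 2221 and 1897 FPKM in GAP-2, against 2124 and 2105 FPKM in GAP-scr, so GAP-2/3 was the lowest group there. No gene of the whole table was at 0, the markers included. The listed markers Pax7, Thy1, Lum, Tcf21, Dpt, Alpl, Bglap, Ibsp and Pth1r were not analysed here.

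Beyond the members, 86 of 132 listed pathway genes were tested. Of these, 23 rose and 23 fell in GAP-2/3, where 28.0% of all genes rose and 11.3% fell. In GAP-2, 10 rose and 11 fell, against 10.4% and 4.18% of all genes. For the mean of both arms, 20 rose and 19 fell, against 24.5% and 9.57% of all genes. The pathway genes had a median log2 change of -0.03 for the mean of both arms, against 0.10 over all genes tested. The counts by role that follow compare the mean of both arms with GAP-scr unless an arm is named. They are read against the shares just given. As the lists were chosen with earlier results of these data known, that reading is a description and not a test.

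Of 9 further ligands tested, 2 rose and 1 fell, with a median log2 change of 0.17. Bmp5, a BMP ligand, had 2.44 and 2.39 FPKM in GAP-2/3 and 0.905 and 0.897 FPKM in GAP-2, against 0.400 and 0.349 FPKM in GAP-scr, where it was below the filter of 1 FPKM. It rose by 0.89 ± 0.10 on the log2 scale (limma, adjusted p = 0.00015), and it passed the filter only through GAP-2/3. The 2 ligands that rose include it. Inhba, which encodes the subunit of activin A, had 30.0 and 32.5 FPKM in GAP-2/3 and 19.6 and 18.5 FPKM in GAP-2, against 12.1 and 15.8 FPKM in GAP-scr, a rise of 0.78 ± 0.11 (adjusted p = 0.000709). Bmp8a, another BMP ligand, fell by 0.56 ± 0.13 (adjusted p = 0.00891), a call lost without GAP-scr B (-0.34, adjusted p = 0.0733).

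Of 8 receptor genes tested, 5 rose and 0 fell (5 and 0 at an unadjusted p below 0.05 in limma), with a median log2 change of 0.30. By arm, 4 rose and 0 fell in GAP-2/3, while 0 were called in GAP-2. In GAP-2 the median log2 change was 0.30, with 4 higher at an unadjusted p below 0.05. Tgfbr1, the kinase receptor for TGF-beta ligands, had 9.62 and 9.88 FPKM in GAP-2/3 and 7.35 and 7.53 FPKM in GAP-2, against 6.32 and 4.73 FPKM in GAP-scr, a rise of 0.56 ± 0.12 (adjusted p = 0.00475). Acvr1 and Bmpr1a, kinase receptors for BMP ligands, rose by 0.35 ± 0.10 (adjusted p = 0.0235) and 0.35 ± 0.11 (adjusted p = 0.0267). Scaling every library to the same median changed the receptor count to 1 higher and 1 lower, and Acvr1 (0.26, adjusted p = 0.0719) and Bmpr1a (0.25, adjusted p = 0.0949) were then not called. The count called was 1 without GAP-scr B, 3 without GAP-2/3 A and 2 without GAP-2/3 B, GAP-2 A or GAP-2 B.

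Among the 5 signal-carrying Smads tested, 1 rose and 0 fell, with 2 higher and 1 lower at an unadjusted p below 0.05 in limma. By arm, 1 rose and 1 fell in GAP-2/3, while 0 were called in GAP-2. Smad5, the BMP-branch Smad, had 21.3 and 23.8 FPKM in GAP-2/3 and 22.4 and 22.9 FPKM in GAP-2, against 18.3 and 17.0 FPKM in GAP-scr. It rose by 0.34 ± 0.10 (adjusted p = 0.0195), a call lost after scaling every library to the same median (0.25, adjusted p = 0.0567) and without GAP-2/3 B (0.30, adjusted p = 0.0523), GAP-2 A (0.35, adjusted p = 0.0569), GAP-2 B (0.33, adjusted p = 0.0794) or GAP-scr B (0.29, adjusted p = 0.0726). Smad3, the TGF-beta-branch Smad, had 9.74 and 11.4 FPKM in GAP-2/3, 16.3 and 16.0 FPKM in GAP-2, and 15.3 and 16.4 FPKM in GAP-scr. Only the GAP-2/3 libraries were low, and the log2 change was -0.55 ± 0.12 in GAP-2/3 (adjusted p = 0.00437) and 0.02 ± 0.12 in GAP-2 (adjusted p = 0.908). Scaling every library to the same median gave 0 higher and 1 lower, which was Smad3 (-0.35, adjusted p = 0.0217). Smad2 differed by 0.23 ± 0.10 for the mean of both arms and was not called (adjusted p = 0.0891).

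Of 14 intracellular modulators tested, 3 rose and 2 fell, with a median log2 change of -0.03. By arm, 3 rose and 3 fell in GAP-2/3, while 0 were called in GAP-2. Smurf2, a ubiquitin ligase for Smads and their receptors, differed by 0.36 ± 0.10 (limma, adjusted p = 0.0146), Trim33, a ubiquitin ligase that binds Smads, by 0.37 ± 0.11 (adjusted p = 0.0207), and Pmepa1, a feedback inhibitor that TGF-beta induces, by -0.36 ± 0.10 (adjusted p = 0.0216). The count called was 0 without GAP-2/3 A or without GAP-2 B, and 3 without GAP-2 A or GAP-scr B. After scaling every library to the same median it was 0 higher and 5 lower.

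Of 12 genes of ligand latency and activation, 1 rose and 5 fell, with a median log2 change of -0.17. Ltbp3, a latent TGF-beta binding protein, had 30.3 and 33.4 FPKM in GAP-2/3 and 38.4 and 33.0 FPKM in GAP-2, against 49.0 and 54.6 FPKM in GAP-scr. Every arm library lay below GAP-scr, and Ltbp3 fell by 0.60 ± 0.10 (limma, adjusted p = 0.00169). It was named for its small p in this contrast. Ltbp4, of the same family, fell by 0.61 ± 0.11 (adjusted p = 0.00233) and Fbn1, the fibrillin that anchors latent complexes in the matrix, by 0.43 ± 0.10 (adjusted p = 0.00805). Fbn1 was called in GAP-2/3 (-0.63, adjusted p = 0.00199) but not in GAP-2 (-0.23, adjusted p = 0.195). The count called was 3 in place of 6 without GAP-2/3 A or without GAP-2 B.

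Of 12 extracellular antagonists and binding proteins, 3 rose and 4 fell, with a median log2 change of 0.10. Dcn, the proteoglycan decorin, which binds TGF-beta and is also on the fibroblast list, had 123 and 128 FPKM in GAP-2/3 and 72.7 and 71.3 FPKM in GAP-2, against 52.6 and 37.2 FPKM in GAP-scr, a rise of 1.09 ± 0.12 (limma, adjusted p = 0.000134). Fstl3, which binds activin and myostatin, had 9.12 and 7.17 FPKM in GAP-2/3 and 10.5 and 10.6 FPKM in GAP-2, against 14.9 and 20.8 FPKM in GAP-scr, a log2 change of -0.86 ± 0.14 (adjusted p = 0.00117). Hfe2, hemojuvelin, a BMP co-receptor of muscle and liver whose soluble form binds BMP ligands, had 43.1 and 45.8 FPKM in GAP-2/3 and 50.6 and 47.1 FPKM in GAP-2, against 76.8 and 69.3 FPKM in GAP-scr, with a log2 change of -0.64 ± 0.09 (adjusted p = 0.00074). None of these genes overlapped between the arms and GAP-scr. They were named for their small p in this contrast, which itself favours such separation. The count called in the list was 3 without GAP-2/3 A and 4 without GAP-2/3 B, GAP-2 A or GAP-2 B, and after scaling every library to the same median it was 1 higher and 4 lower.

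**Figure D3:**
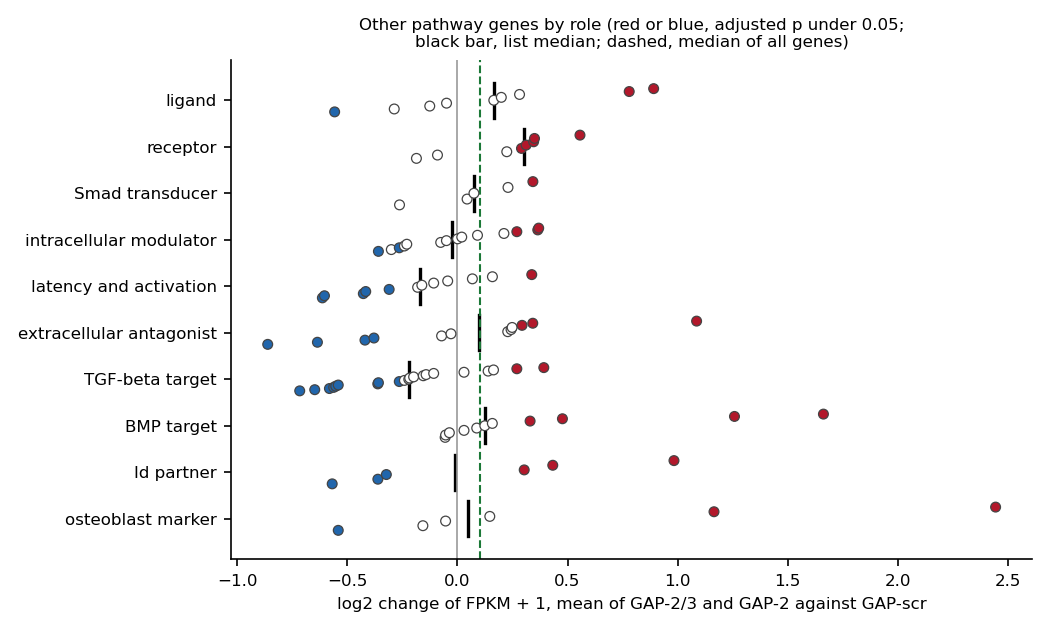
Log2 change of FPKM + 1 for the mean of GAP-2/3 and GAP-2 against GAP-scr (horizontal axis), with a point for each tested gene that is no member, by list; filled points passed an adjusted p of 0.05, black bars are list medians and the dashed line is the median of all genes. The TGF-beta target list has 9 genes called to the left of 0 and 2 to the right, and the BMP target list has 4 called to the right and 0 to the left. Over all genes tested, 24.5% were called to the right and 9.57% to the left. Tnfrsf11b of the BMP targets passed the filter only through the arms, and Bmp5 of the ligands only through GAP-2/3.

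Target genes of the BMP branch and of the TGF-beta branch were counted separately. Of 11 BMP targets tested, which exclude the members, 4 rose and 0 fell (4 and 0 at an unadjusted p below 0.05 in limma). Over all genes, 24.5% rose and 9.57% fell. The list's median log2 change of 0.12 was near the 0.10 over all genes. Tnfrsf11b, osteoprotegerin, a decoy receptor that restrains bone resorption, had 5.997 and 6.03 FPKM in GAP-2/3 and 2.48 and 2.83 FPKM in GAP-2, against 0.499 and 0.706 FPKM in GAP-scr. It rose by 1.66 ± 0.11 on the log2 scale (limma, adjusted p = 2.46e-06). Its GAP-scr libraries lay below the filter of 1 FPKM, so it passed the filter only through the arms. The 4 targets that rose include it. Gata3, a developmental transcription factor, had 8.95 and 11.0 FPKM in GAP-2/3 and 3.89 and 4.10 FPKM in GAP-2, against 2.15 and 2.03 FPKM in GAP-scr, a rise of 1.26 ± 0.11 (adjusted p = 2.04e-05). Both genes were ordered as GAP-2/3, GAP-2 and GAP-scr from high to low, without overlap. Atoh8, a basic helix-loop-helix factor, had 2.499 and 2.47 FPKM in GAP-2/3 and 3.10 and 2.33 FPKM in GAP-2, against 1.47 and 1.69 FPKM in GAP-scr, a rise of 0.48 ± 0.12 (adjusted p = 0.0101). With a filter of 5 FPKM, which removes Tnfrsf11b and Atoh8, the count called was 2. The count called was 2 under quantile normalization and 2 without the pair of libraries highest in Rn45s, and Atoh8 was then not called (adjusted p = 0.0645 and 0.0934).

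Of 21 TGF-beta targets tested, 2 rose and 9 fell, with a median log2 change of -0.22. Acta2, smooth muscle actin, had 1526 and 1510 FPKM in GAP-2/3 and 1325 and 1368 FPKM in GAP-2, against 2028 and 2258 FPKM in GAP-scr, a log2 change of -0.58 ± 0.10 (limma, adjusted p = 0.00142). Fn1, the matrix protein fibronectin, had 694 and 851 FPKM in GAP-2/3 and 989 and 862 FPKM in GAP-2, against 1297 and 1346 FPKM in GAP-scr, a log2 change of -0.65 ± 0.11 (adjusted p = 0.00169). Snai1, a transcriptional repressor of epithelial genes, had 15.3 and 15.2 FPKM in GAP-2/3 and 17.995 and 14.7 FPKM in GAP-2, against 24.7 and 22.9 FPKM in GAP-scr, a log2 change of -0.56 ± 0.11 (adjusted p = 0.00281). All arm libraries lay below GAP-scr for these genes, which were named for their small p in this contrast. The 2 that rose were Snai2, a relative of Snai1 (0.39, adjusted p = 0.0204), and Skil, a Smad corepressor (0.27, adjusted p = 0.0459). The count called was 6 without GAP-2/3 A and 7 without GAP-2/3 B or GAP-2 B, and after scaling every library to the same median it was 0 higher and 12 lower. The difference between the BMP and TGF-beta target lists was not tested.

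**Figure D4:**
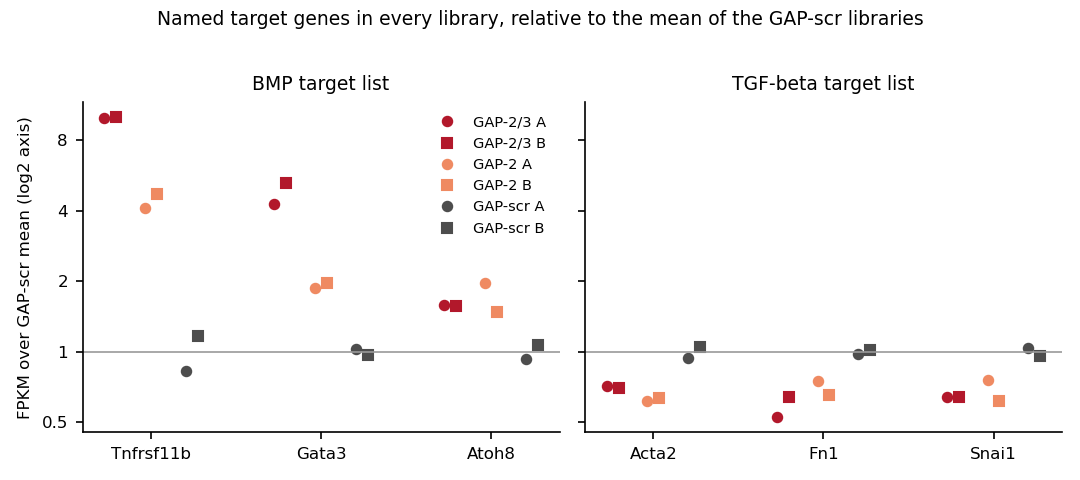
FPKM of the named BMP targets (left) and TGF-beta targets (right) in every library, divided by the mean of the GAP-scr libraries (vertical axis, log2 scale). Tnfrsf11b, Gata3 and Atoh8 lie above 1 in every arm library, while Acta2, Fn1 and Snai1 lie below 1 in every arm library; these are the 3 genes of each list with the smallest p in this contrast, so the choice itself favours genes set apart from GAP-scr.

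Genes of the proteins that Id proteins bind, or that E proteins pair with, were called in both directions. All 6 tested were called, 3 as higher and 3 as lower. Tcf12, an E protein, had 78.6 and 79.7 FPKM in GAP-2/3 and 76.2 and 73.5 FPKM in GAP-2, against 59.7 and 54.0 FPKM in GAP-scr, a rise of 0.43 ± 0.09 (limma, adjusted p = 0.0047). Myf5, a myogenic factor of myoblasts, had 31.6 and 28.0 FPKM in GAP-2/3 and 23.5 and 24.97 FPKM in GAP-2, against 14.8 and 11.6 FPKM in GAP-scr, a rise of 0.98 ± 0.11 (adjusted p = 0.000153). Myod1, the myogenic factor whose protein pairs with E proteins, had 92.4 and 91.0 FPKM in GAP-2/3 and 101.8 and 89.5 FPKM in GAP-2, against 127.7 and 151.9 FPKM in GAP-scr, a log2 change of -0.57 ± 0.10 (adjusted p = 0.0022). The arms lay clear of GAP-scr for Tcf12, Myf5 and Myod1, which were named for their small p in this contrast. The count called was 3 without GAP-2/3 A or without GAP-2 B.

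The genes whose pattern was most like that of Bmp4, Tgfb3 and Id3 were found by Pearson correlation of log2(FPKM + 1) over the 6 libraries, among the 8501 genes averaging 5 FPKM or more. Enpp2 (r = 0.9995), Cpe (0.9994) and Pi16 (0.9987) were nearest to Bmp4. Enpp2, the enzyme autotaxin, had 13.3 and 15.1 FPKM in GAP-2/3 and 10.3 and 8.14 FPKM in GAP-2, against 0.748 and 1.11 FPKM in GAP-scr. It reached the average of 5 FPKM only through the arms. Prkaca (0.9979), Sema6a (0.9975) and Gpr107 (0.9973) were nearest to Tgfb3, and Mfap2 (0.9938) and Nans (0.9906) to Id3. With 6 libraries in 3 groups high correlations are common: 260 genes correlated above 0.95 with Bmp4, 299 with Tgfb3 and 76 with Id3. That limit is below the values of the genes named here.

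ChIRP-seq, in which chromatin bound by an RNA is pulled down with complementary probes, was made for Charme with even and odd probe sets beside input and LacZ controls, with 1 library each. The authors' list holds 798 merged peaks, with no value per library. None of the 9 members overlapped a peak, against 184 of 10265 tested genes (1.79%) that did. The nearest peak, at chr7:25681671-25681752, lay 5.25 kb upstream of Tgfb1. Id3 lay 77.1 kb and Id1 139 kb from a peak, Tgfb3 0.249 Mb, Tgfb2 0.483 Mb, Id2 1.23 Mb, Smad6 1.27 Mb, Bmp4 1.85 Mb and Smad7 5.45 Mb. The median distance was 0.483 Mb for the members and 0.914 Mb for the tested genes. These distances assume that the peaks are on GRCm38. The submitters' notes name mm9, but the last peak on chromosome X ends at 170732078, beyond the end of that chromosome in mm9 and near the end of the last RefSeq gene there in GRCm38.p6 (170678054).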

How the data were processed

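RNA-seq of 6 libraries was read from the authors' deposited FPKM table. The submitters' processing notes name TopHat2, Bowtie2, Cufflinks and Cuffdiff among the tools, with CASAVA, FastQC, cutadapt, Trimmomatic, bedtools and MACS, and the build mm9, with neither roles nor versions, and the labels name a stranded TruSeq mRNA kit. Each gene reaches at least 1.03 FPKM in some library and no value is 0, and no source used here states the filter behind this. With no counts, the depth and its counting error are unknown and count tests were not run. The peak file was deposited by the authors with a score per peak, which was not used further.

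From these, log2(FPKM + 1) of the 10993 genes averaging 1 FPKM or more was fitted for the 3 groups together with limma 3.58.1 in R 4.3.3 (intensity trend, no covariate, two-sided), with Benjamini-Hochberg adjustment over all genes and a threshold of 0.05. The step was tested on simulated data. The members, gene lists and rules were chosen with earlier results of these data known. The genes named are the members, up to 3 tested genes per list with the smallest p for the mean of both arms, and the 3 genes most correlated with each of the 3 members of smallest p; other genes are named as markers, and some genes are not reported here. Deviations from the group means correlated at -0.18 between GAP-2/3 and GAP-2, -0.13 between GAP-2/3 and GAP-scr and 0.36 between GAP-2 and GAP-scr, so the letters A and B were not taken to pair libraries. The alternatives tried were another pseudocount (0.1), another filter (none, or 5 FPKM), scaling to one median, quantile normalization, no trend, a replicate block, each library left out and only the libraries compared. Leaving out both libraries highest in Rn45s and a crossed block were added after the data were seen. Promoter sequences and gene positions are from RefSeq, read with Python 3.11.15, and a promoter sequence was used for 6 members.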

Additional observations from a re-analysis of the deposited data

Results flagged for a closer look

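The effects of the 2 gapmer sets against the shared GAP-scr libraries differed from each other for 10 of the members and of the genes named by rule from the lists, by the direct test of GAP-2/3 against GAP-2 in limma (log2 difference, Benjamini-Hochberg adjusted p). Among the members, Id3 was higher in GAP-2/3 than in GAP-2 by 0.81 (adjusted p = 0.0043) and Tgfb3 differed by -0.42 (adjusted p = 0.0466). Higher in GAP-2/3 were also Gata3 (1.13, adjusted p = 0.000274), Tnfrsf11b (0.94, adjusted p = 0.000835), Bmp5 (0.85, adjusted p = 0.00113, a gene that passed the filter only through GAP-2/3), Dcn (0.79, adjusted p = 0.00554) and Inhba (0.68, adjusted p = 0.00831). Lower in GAP-2/3 were Col1a1 (-0.75, adjusted p = 0.00468), Smad3 (-0.57, adjusted p = 0.0111) and Fbn1 (-0.40, adjusted p = 0.0493). Named outside that rule, the osteoblast marker Spp1 also differed (0.98, adjusted p = 0.00248), and Gdf15 and Grem1 are described under the other observations. Over all genes tested, 10.1% were called between the arms. The list genes were chosen for a small p in the same fit, so their number is not comparable with that share. For them the alternatives were run only for the mean of both arms, so their calls between the arms have no such check.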

How the results depend on the processing

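Without depth, the counting error of the low genes (Smad6, Bmp4, Bmp5, Tnfrsf11b) is unknown, and 2 libraries per group leave many calls near the threshold. Over the members and other named genes, 66 results had 1002 alternative values, of which 883 kept direction and side of the threshold, 102 lost the call, 11 gained it and 6 changed sign, none of those called. The sign changes were Smad6 between the arms (-0.0416 under quantile normalization and -0.0641 to 0.152 with a library left out), Id2 in GAP-2 (-0.0148 to 0.329) and Tgfb1 in GAP-2/3 (-0.11 to 0.0895). Of 150 alternative list counts, 115 stayed within 1.5 times.

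With a library left out, the lone sample of its group being assumed to vary like the others, genes called ran from 1520 to 4508 in GAP-2/3, 497 to 2636 in GAP-2, 2063 to 3967 for the mean of both arms and 184 to 2094 between the arms. Members called ran from 4 to 8, 1 to 4, 5 to 7 and 0 to 4. Only the libraries compared gave 916 genes and 1 member in GAP-2, and 2086 genes and 4 members between the arms. Without a trend 1 member was called between the arms. Without both libraries highest in Rn45s, 1 member was called in GAP-2, 4 for the mean of both arms and 1 between the arms. With the replicate block, 4466 genes were called in GAP-2/3, 1955 in GAP-2, 3944 for the mean of both arms and 1469 between the arms, and with the crossed replicate block 4832, 2056, 4354 and 1598. The cause of these shifts was not tested.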

Other observations

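A ligand and a BMP antagonist of the pathway lists were called in opposite directions in the 2 arms, and they were picked out after their values were seen. Gdf15, a stress-induced member of the TGF-beta superfamily, had 3.81 and 4.40 FPKM in GAP-2/3 and 22.8 and 20.2 FPKM in GAP-2, against 11.3 and 10.1 FPKM in GAP-scr. The log2 change was -1.20 ± 0.13 in GAP-2/3 (limma, adjusted p = 5.47e-05) and 0.95 ± 0.13 in GAP-2 (adjusted p = 0.000776), and the difference between the arms was -2.14 ± 0.13 (adjusted p = 2.03e-06). Grem1, gremlin, which binds BMP ligands such as Bmp4, had 4.11 and 3.06 FPKM in GAP-2/3 and 10.1 and 11.4 FPKM in GAP-2, against 5.16 FPKM in each GAP-scr library. Its log2 change was -0.44 ± 0.14 in GAP-2/3 (adjusted p = 0.0262) and 0.93 ± 0.14 in GAP-2 (adjusted p = 0.00149), with -1.37 ± 0.14 between the arms (adjusted p = 0.000117). They were 2 of 86 pathway genes tested, and 28 of 10993 genes were called in opposite directions in this way.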
